A study of Mus musculus with 22 samples.

Results

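The 8 transcription factors described here help to set and maintain the identity of microglia, the resident macrophages of the brain: Spi1, Irf8, Runx1, Cebpa, Sall1, Smad3, Mef2a and Mef2c. They were listed by symbol. Each of the 8 genes was represented by the probe set that maps to its symbol alone and has the highest mean, and for each there was exactly 1 such probe set. They are 8 of 19936 genes with a usable probe set on the array, and all 8 are among the 11830 genes that passed the filter on low values, which asks that 2 or more arrays read the gene above their own 50th percentile.

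Expression was measured on 22 mouse gene arrays. The cells were microglia, sorted as triple positive for CD11b, CD45 and F4/80 from dissociated brains of wild-type (WT) mice or of Trem2-/- mice (KO), which lack a lipid-sensing receptor of myeloid cells. Mice of each genotype had normal chow (control), cuprizone at 0.2% of the diet, Covi-Ox at 0.1%, or both additives. The array labels give 4 weeks for the treated groups and no duration for the controls. Cuprizone chelates copper and demyelinates the brain by killing oligodendrocytes. Covi-Ox is a tocopherol (vitamin E) mixture, here enriched in alpha tocopherol and begun before cuprizone in the mice given both. The control groups of each genotype had 2 arrays, and KO cuprizone and the 3 treated WT groups (WT cuprizone, WT Covi-Ox and WT both) had 3. For the other 6 KO arrays the label fields disagree, and neither reading was chosen. In 3 of them, set A, the title names both additives and the other fields name Covi-Ox alone. In the other 3, set B, it is the reverse. All 6 received Covi-Ox under either reading. All groups share the same sort. The sources used here give no strain, age or sex and do not say how the knockout was made. Whether replicates came from separate animals is not stated, so each p-value measures the spread between these samples, which may be technical.

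Spi1 encodes PU.1, an ETS-family factor that opens enhancers in all myeloid cells and on which microglia depend. IRF8, an interferon regulatory factor, binds many sites together with PU.1 and is needed for microglia to mature. RUNX1 and C/EBP alpha, encoded by Runx1 and Cebpa, act earlier in the same lineage and still work at macrophage enhancers. SALL1, a zinc-finger factor, is nearly confined to microglia within the myeloid lineage, and its loss lets them become inflammatory. SMAD3 carries the signal of TGF-beta, the brain cytokine on which adult microglia rely to keep their resting genes. MEF2A and MEF2C bind A/T-rich sites at microglial enhancers, and MEF2C is known to restrain inflammatory responses.

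Trem2 was read at 1022 to 1724 intensity units on the 11 WT arrays and at 84.5 to 114 on the 11 KO arrays, so every array matched its labelled genotype. Array medians ran from 36.1 to 38.6 units. Of 10 microglia markers 9 are on the array, and all 9 lay above the array median on all 22 arrays, with a summed level from 19316 on WT both 3 to 26394 on KO cuprizone 3. Summed neutrophil markers ran from 181 on WT Covi-Ox 3 to 3321 on KO cuprizone 1, with Cxcr2 and Mmp8 below the array median on all 22 arrays, and those of brain-border macrophages from 1271 to 3030. Monocyte markers summed to 99.7 to 234 units. Oligodendrocyte markers summed to 328 to 412, astrocyte markers to 209 to 309, neuron markers to 106 to 162, endothelial markers to 160 to 277 and lymphocyte markers to 94.3 to 125. On 3 arrays, WT cuprizone 3 and KO cuprizone 2 and 3, immediate-early genes, which respond to handling and stimulation, averaged 8.38 to 8.70 on the log2 scale, against 9.60 to 9.85 on the other 19. Members' differences that involve WT cuprizone or KO cuprizone are therefore also given without these 3 arrays, which leaves a single KO cuprizone array, assumed to vary like the other groups. In RNA from pooled sorted cells, fewer cells of a type and less RNA per cell cannot be told apart.

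The promoters of these genes show which binding letters of the same families lie beside their start sites. Printed here are those of the 3 genes called in a planned comparison. Mef2a and Sall1 were called lower with cuprizone in WT on the Covi-Ox diet but not on chow. Irf8 was called lower in KO than in WT under cuprizone. As given below, none of these calls held in every alternative. Each sequence is 300 bases long, from 250 before to 50 after an annotated transcript start, 5′ to 3′ along the gene, from RefSeq on assembly GRCm38.p6, with matched motifs in capitals. The Mef2a window lies at chr7:67372809-67373108 on the minus strand, at a transcript start other than the start of the whole gene. The Sall1 window lies at chr8:89044113-89044412 on the minus strand and the Irf8 window at chr8:120736108-120736407 on the plus strand, both at the gene's start.
Mef2a: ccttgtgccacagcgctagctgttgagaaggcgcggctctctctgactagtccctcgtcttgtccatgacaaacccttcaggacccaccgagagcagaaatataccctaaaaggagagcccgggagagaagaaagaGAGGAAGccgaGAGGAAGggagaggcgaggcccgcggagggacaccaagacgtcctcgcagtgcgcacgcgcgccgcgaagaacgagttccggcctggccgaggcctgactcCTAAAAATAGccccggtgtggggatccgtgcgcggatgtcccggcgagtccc
Sall1: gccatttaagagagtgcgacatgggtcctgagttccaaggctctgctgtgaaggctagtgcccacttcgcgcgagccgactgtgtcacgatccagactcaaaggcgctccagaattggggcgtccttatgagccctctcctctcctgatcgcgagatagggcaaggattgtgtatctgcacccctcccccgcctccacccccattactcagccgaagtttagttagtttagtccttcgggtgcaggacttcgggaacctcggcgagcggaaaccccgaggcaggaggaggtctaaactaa
Irf8: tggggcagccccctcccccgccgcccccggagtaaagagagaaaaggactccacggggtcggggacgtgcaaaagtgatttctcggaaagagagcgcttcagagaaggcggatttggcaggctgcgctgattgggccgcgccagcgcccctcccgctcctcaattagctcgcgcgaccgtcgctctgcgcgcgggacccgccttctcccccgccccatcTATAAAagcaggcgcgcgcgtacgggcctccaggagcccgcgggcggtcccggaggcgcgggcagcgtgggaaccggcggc

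In all, 7 motifs were searched on both strands. The PU.1 motif, GAGGAAG, is present in 13.6% of 32851 windows of the same length. The MEF2 motif, which is CTA and TAG with any 4 bases between them, is present in 3.69%. The SMAD palindrome GTCTAGAC occurs in 0.213% of windows and the RUNX motif TGTGGTT in 5.27%. The C/EBP motif TTGCNNAA occurs in 10.8% of windows. The IRF motif, GAAA repeated with any 2 bases between the copies, occurs in 3.44%, and the TATA box TATAAA in 13.6%. The Mef2a window held GAGGAAG at bases -114 to -108 and again at -103 to -97, counted from the start site, and the MEF2 match CTAAAAATAG at -2 to 7. The Irf8 window held TATAAA at -31 to -26. The Sall1 window held none of the 7. Among the other members, Runx1 carried its own family's motif at 27 to 33 and at 35 to 41 on the opposite strand. Cebpa carried TATAAA at -30 to -25. Mef2c carried GAGGAAG at -186 to -180 and, in the same window, TATAAA on the opposite strand at -22 to -17. Another Mef2c window held TATAAA on the opposite strand at -107 to -102. Windows were found for 7 of the 8 members, 13 windows in all, and none of the matches overlapped another. A match is a description of letters and not a measured site.

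All 8 factors were well above the middle of the array everywhere: their lowest single readings lay between the 88.3 percentile (Smad3) and the 97.3 percentile (Mef2a) of the arrays concerned. The steadiest was Spi1, which ran from 738 on KO cuprizone 3 to 874 on set A 1, with a median of 811 intensity units. Its group means (geometric throughout) differed by at most 1.10-fold, from 756 in WT both to 834 in set B. Its SD within groups was 0.062 on the log2 scale, and only 3 of 420 genes within 0.5 log2 units of its level had a smaller one. Irf8 was nearly as tight, with an SD of 0.077 and 18 of 778 genes of similar level below it. Sall1 and Mef2a were the least steady of the members, with SDs of 0.162 and 0.170, and 155 of 233 and 159 of 206 genes of their level had smaller ones. Smad3, Runx1, Cebpa and Mef2c lay between, at 0.119, 0.121, 0.117 and 0.110.

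The order of groups differed from factor to factor. Mef2a, Sall1, Smad3 and Runx1 all had their lowest group mean in WT both, at 1251, 987, 251 and 660 units. Spi1 was lowest there as well. Mef2a, Mef2c, Runx1 and Cebpa had their highest in WT Covi-Ox, at 1734, 1182, 763 and 838. Sall1 was highest in set A (1493) and Smad3 in KO control (341). Irf8 had an order of its own, from 561 in WT cuprizone to 433 in KO cuprizone. Neighbouring groups in these orders overlapped in single arrays for every factor at each of 7 steps, except that for Irf8 the step from WT Covi-Ox to KO cuprizone did not overlap. The range of group means was 1.51-fold for Sall1, 1.39-fold for Mef2a, 1.36-fold for Smad3, 1.30-fold for Irf8, 1.27-fold for Cebpa, 1.21-fold for Mef2c and 1.16-fold for Runx1.

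**Figure D1:**
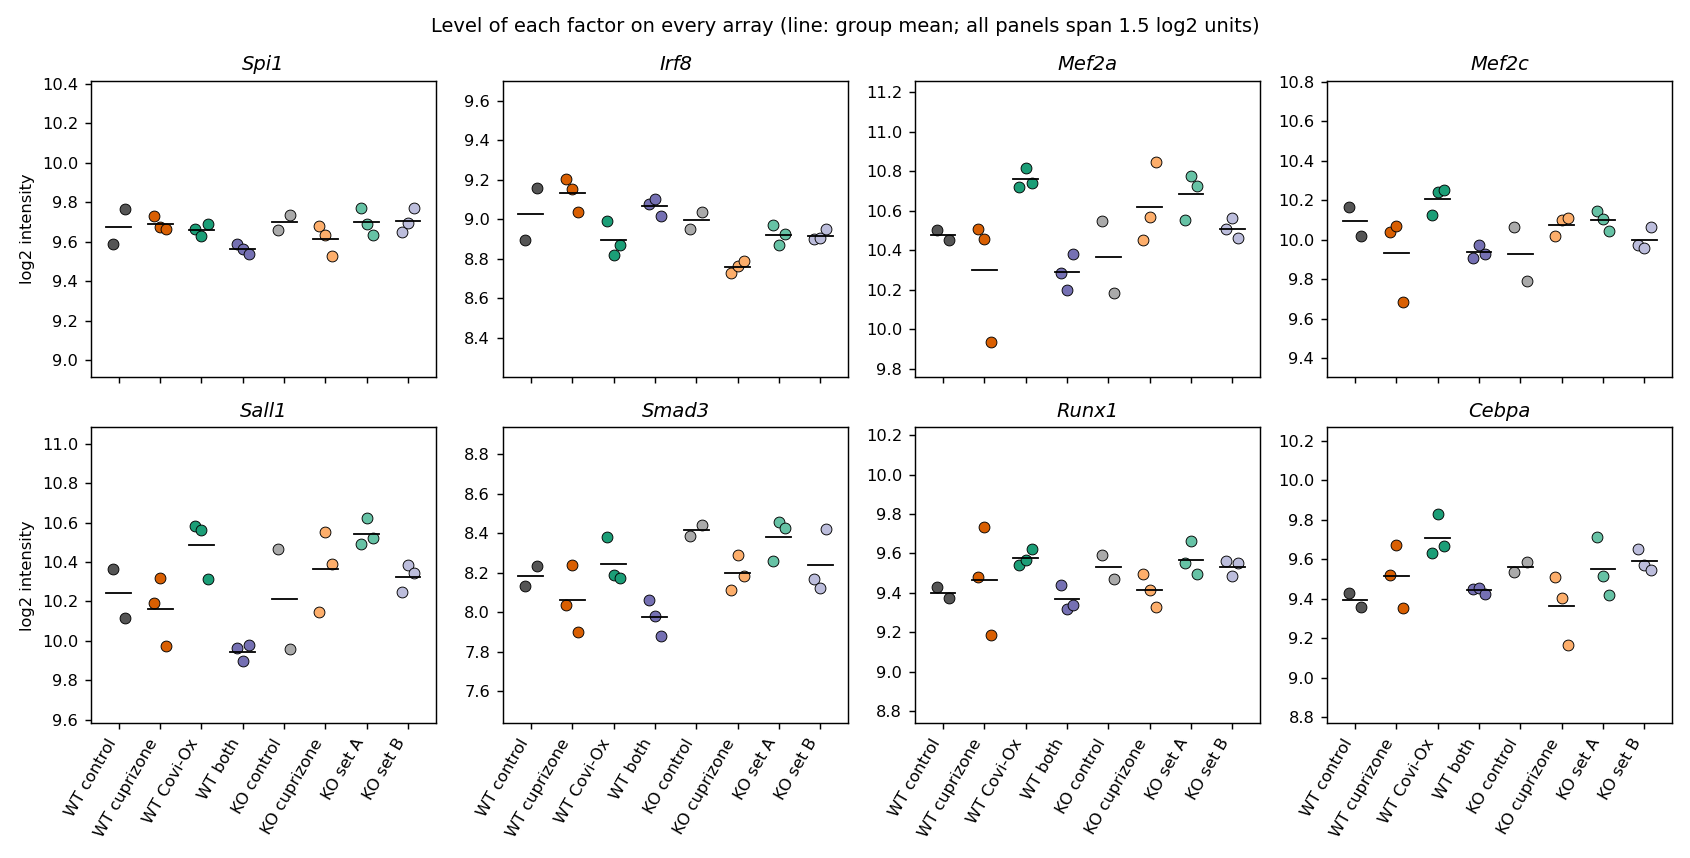
Level of each of the 8 factors on every array, as log2 intensity (vertical axis), by group (horizontal axis); points are single arrays, lines are group means, and each panel spans the same 1.5 log2 units around the gene's median. Spi1 hardly moves, Sall1 and Mef2a are low on the WT both arrays, and Irf8 is lowest on the 3 KO cuprizone arrays.

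The first comparison asks what cuprizone does to these factors in wild-type mice. On normal chow no change was detected in any of the 8, whereas on the Covi-Ox diet Sall1 and Mef2a were lower with cuprizone. Sall1 read 1535, 1515 and 1274 units on the 3 WT Covi-Ox arrays and 997, 954 and 1010 on the 3 WT both arrays. All 3 arrays with cuprizone were below all 3 without. Its mean fell by 0.54 ± 0.13 on the log2 scale (SE, n = 3 and 3, 95% interval -0.82 to -0.26), from 1436 to 987 units, a 1.46-fold difference (limma, adjusted p = 0.0140). Mef2a read 1686, 1806 and 1712 without cuprizone and 1247, 1177 and 1333 with it, again with no overlap. It fell by 0.47 ± 0.14 (interval -0.76 to -0.19), from 1734 to 1251 units or 1.39-fold (adjusted p = 0.0394). These were 2 of 8 members called lower, where 3.17% of all tested genes were called lower and 7.82% in either direction.

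The remaining members did not pass the test on the Covi-Ox diet. Mef2c read 1116, 1212 and 1222 units without and 960, 1005 and 974 with cuprizone, a difference of -0.27 ± 0.10 (adjusted p = 0.123). Smad3 read 333, 292 and 288 against 267, 252 and 236, a difference of -0.27 ± 0.11 (adjusted p = 0.141). Cebpa read 792, 911 and 814 against 698, 702 and 687, also -0.27 ± 0.11 (adjusted p = 0.144). For each of these 3 genes every array with cuprizone was below every array without. Runx1 differed by -0.21 ± 0.11 (adjusted p = 0.291) and Spi1 by -0.10 ± 0.08 (adjusted p = 0.567). Irf8 was the one member with the other sign, at 509, 451 and 468 units without and 539, 551 and 518 with cuprizone, a difference of 0.17 ± 0.09 (adjusted p = 0.273). In all 8 members the 2 groups did not overlap, 7 lower and 1 higher, where 17.5% of tested genes were without overlap and lower and 13.1% without overlap and higher. The median difference of the members was -0.27, against -0.03 over all genes tested.

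The Sall1 call on the Covi-Ox diet was lost without WT Covi-Ox 1 (adjusted p = 0.0630), WT Covi-Ox 2 (0.0638) or WT both 2 (0.0596), and the Mef2a call was lost when any of the 6 arrays was left out (adjusted p 0.0619 to 0.145), while neither difference changed sign. Summed border-macrophage markers were 2405 to 3030 units in WT Covi-Ox and 1401 to 1785 in WT both, with 3 of 9 listed markers called lower. Summed microglia markers were 24913 to 25152 and 19316 to 19614, and those called lower included Siglech, Tmem119, Cx3cr1, P2ry12 and Csf1r. Neutrophil markers summed to 181 to 257 and 374 to 548, and monocyte markers to 99.7 to 117 and 112 to 153. The part of these cell-type markers in the result was not tested.

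On normal chow no member's difference was detected, with only 2 control arrays. WT cuprizone minus WT control gave differences from -0.18 (Mef2a) to 0.12 (Cebpa), with 95% intervals that reached from -0.50 to 0.37 over the 8 members. Every member's arrays overlapped between the groups, where 32.9% of tested genes did not overlap. Limma called 0 of 8, and 0 had an unadjusted p under 0.05, where 2.5% of tested genes were called. Sall1 read 1318 and 1111 units in control and 1170, 1277 and 1007 with cuprizone, a difference of -0.08 ± 0.15. Mef2a read 1448 and 1401 in control and 1457, 1404 and 979 with cuprizone. The 979 belongs to WT cuprizone 3, an array low in immediate-early genes and the lowest of all 22 for Mef2a, Mef2c and Runx1. Without the 3 low arrays the members' differences ran from -0.04 (Smad3) to 0.21 (Runx1), with Mef2a at 0.01 and Sall1 at 0.01, and 0 were called. The 296 genes behind the 2.5% were 69 without WT control 1, 87 without WT control 2, 126 without WT cuprizone 3 and 184 without the 3 low arrays. Neutrophil markers summed to 3280 to 3312 units in WT control and 697 to 2389 in WT cuprizone. Border-macrophage markers summed to 2854 to 2981 and 1653 to 2231, microglia markers to 24625 to 25100 and 20482 to 22832, and monocyte markers to 177 to 193 and 147 to 187. The part of these markers was not tested.

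Averaged over both diets, Mef2a fell by 0.32 ± 0.10 with cuprizone (1571 to 1256 units, adjusted p = 0.0429) and Sall1 by 0.31 ± 0.10 (1318 to 1063 units, adjusted p = 0.0445), where 5.93% of tested genes were called lower and 13% in either direction. Mef2c (-0.22 ± 0.08, adjusted p = 0.0748), Smad3 (-0.20 ± 0.08, 0.123) and Irf8 (0.14 ± 0.07, 0.181) were not called, and Spi1, Runx1 and Cebpa differed by -0.04 to -0.07. Both calls were narrow. Without the 3 arrays low in immediate-early genes the differences were -0.23 for Mef2a (adjusted p = 0.0723) and -0.26 for Sall1 (0.0926). Over all tested genes 1532 were called, 882 without WT control 1 and 929 without WT control 2. Leaving out single arrays, the Mef2a call held only without WT cuprizone 1 or 2, and the Sall1 call only without WT cuprizone 2 or WT Covi-Ox 3. The Sall1 difference was -0.25 without WT control 1.

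Whether cuprizone acted differently on the 2 diets was tested directly and not called for any member. The difference of the cuprizone effects was -0.46 ± 0.20 for Sall1 (interval -0.88 to -0.05, adjusted p = 0.710), -0.39 ± 0.16 for Cebpa (adjusted p = 0.704) and -0.30 ± 0.21 for Mef2a. Limma called 0 of 8 members, 2 of which had an unadjusted p under 0.05, where 0.0254% of tested genes were called. Without the 3 low arrays the differences were -0.56 for Sall1 (adjusted p = 0.276), -0.47 for Cebpa (0.221) and -0.48 for Mef2a (0.251), still with 0 of 8 called. The 3 genes called in all became 32 without WT cuprizone 3, and 1 or 2 without WT control 1 or 2 or WT both 2. A call on the Covi-Ox diet and none on chow therefore does not show that the diets differ.

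**Figure D2:**
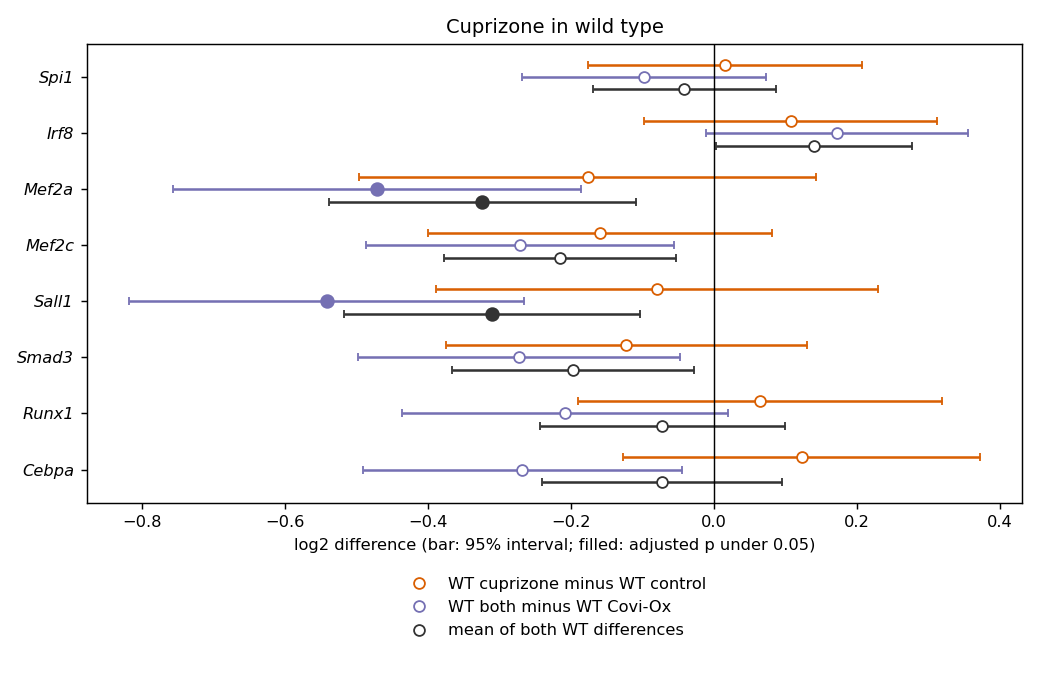
Log2 difference with cuprizone in WT (horizontal axis) for each factor, on normal chow, on Covi-Ox and as the mean of both, with bars for 95% intervals and filled points for adjusted p under 0.05. On Covi-Ox Sall1 (-0.54) and Mef2a (-0.47) are the filled points, and on chow no interval lies clear of 0.

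Covi-Ox alone gave no call among the members in WT (0 of 8, 1 with an unadjusted p under 0.05, 0.0338% of tested genes called). Cebpa read 689 and 655 units in control and 792, 911 and 814 on Covi-Ox, a difference of 0.32 ± 0.12 (interval 0.07 to 0.57, adjusted p = 0.534). Mef2a (0.28 ± 0.15) and Runx1 (0.17 ± 0.12) were also higher on every Covi-Ox array than on either control array, where 13.4% of tested genes were without overlap and higher. Summed neutrophil markers were 3280 to 3312 units in WT control and 181 to 257 in WT Covi-Ox, and the part of that in these differences was not tested. Adding Covi-Ox to cuprizone gave 0 calls among the 8 members and 0 with an unadjusted p under 0.05, where 0.152% of tested genes were called. Spi1 read 850, 818 and 811 units in WT cuprizone and 770, 756 and 743 in WT both. That is a difference of -0.13 ± 0.08 with no overlap, where 8.4% of tested genes were without overlap and lower. Without the 3 low arrays the Spi1 difference was -0.14, the members ran from -0.31 (Sall1) to -0.11 (Irf8), and 0 were called. The 18 genes called in all became 104 without WT cuprizone 3 and 4 to 10 without any other single array of these groups.

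Relatives and partners of the 8 factors were followed in a list of 32 genes, of which 28 were measured. With cuprizone on the Covi-Ox diet 1 rose and 2 fell (3.57% and 7.14% of the list), where 4.65% of all tested genes rose and 3.17% fell. Irf7, the interferon-induced relative of Irf8, rose by 1.24 ± 0.25 (adjusted p = 0.00297), and Ets1, an ETS factor like PU.1, fell by 0.49 ± 0.09 (adjusted p = 0.00155). Cebpg, a partner of C/EBP factors, fell by 0.43 ± 0.13 (adjusted p = 0.0435). Irf7 also rose on normal chow, by 1.29 ± 0.27 from 50.5 to 123 units, a call lost without WT control 1, WT control 2 or WT cuprizone 3, or with only the groups compared. The list median was -0.12 on Covi-Ox, against -0.03 over all genes. Leaving out any one of the 6 arrays left 1 called lower in place of 2.

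Other myeloid transcription factors were followed in a list of their own. Of 26 measured of 32 listed, 4 rose and 2 fell with cuprizone on Covi-Ox (15.4% and 7.69%, where 4.65% and 3.17% of all tested genes did). Bhlhe40, a basic helix-loop-helix repressor, rose by 3.82 ± 0.35, from 13.5 to 191 units (adjusted p = 6.74e-07). The 13.5 units lay below the array medians of 36.1 to 38.6. By group means Bhlhe40 lay above those medians only in WT cuprizone (76.5) and WT both. Its inclusion among the tested genes therefore rests on the groups where it was high, and its differences start from low readings. Hif1a, the hypoxia-response factor, rose by 0.56 ± 0.13, Mitf, a regulator of lysosomal genes, by 0.53 ± 0.12 and Prdm1, which encodes BLIMP1, by 0.47 ± 0.13. On normal chow Bhlhe40 rose by 2.52 ± 0.39 and Hif1a by 0.54 ± 0.14 (adjusted p = 0.0484), and 1 of these 2 calls was left without WT control 1, WT control 2, WT cuprizone 3 or the 3 low arrays, and 0 with only the groups compared. Without WT Covi-Ox 1 the 4 risen on Covi-Ox became 2, and the 2 fallen became 0 without WT Covi-Ox 1 or 3 or any of the WT both arrays and 1 without WT Covi-Ox 2.

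The genes that SMAD3 and PU.1 act with or on were followed in further lists, against the same 4.65% and 3.17% of all tested genes. Of 21 measured TGF-beta pathway genes (25 listed), 1 rose and 3 fell with cuprizone on Covi-Ox: the TGF-beta activator Thbs1 rose by 0.89 ± 0.16, and the co-receptor Eng (-0.49 ± 0.10), the receptor Tgfbr1 (-0.37 ± 0.10, 2655 to 2057 units) and the integrin Itgav (-0.28 ± 0.08) fell. The count of 3 fell to 2 without WT Covi-Ox 1 and to 1 without any of the other 5 arrays. Of 15 measured targets of PU.1 and IRF8 (16 listed), 3 rose and 1 fell, with a median of 0.08. Cybb, the phagocyte oxidase subunit, rose by 1.48 ± 0.20, and the receptors Csf2ra and Csf2rb rose by 0.98 ± 0.17 and 0.64 ± 0.16. Csf1r, the receptor microglia need to survive, fell by 0.31 ± 0.08, from 4172 to 3360 units. It was not called without WT Covi-Ox 2.

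Genes of the resting microglial signature moved one way. Of 21 measured (23 listed, 6 of them also on the microglia marker list), 13 fell and 0 rose with cuprizone on Covi-Ox (3.17% of all tested genes fell), with a median of -0.45. The orphan receptor gene Gpr165 fell by 1.73 ± 0.20 (1217 to 368 units), Crybb1 by 0.99 ± 0.12, the fructose transporter Slc2a5 by 0.82 ± 0.19 and the adhesion receptor Adgrg1 by 0.81 ± 0.10. Leaving out single arrays left 11 or 12 called. Over both diets 19 of 21 fell, or 16 without the 3 arrays low in immediate-early genes and 13 to 18 without any one array. On chow alone 1 fell (Upk1b, -0.68 ± 0.18), and between 0 and 4 did when 1 array was left out: 0 without either control array or WT cuprizone 3, 4 without WT cuprizone 1 and 3 without WT cuprizone 2.

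**Figure D3:**
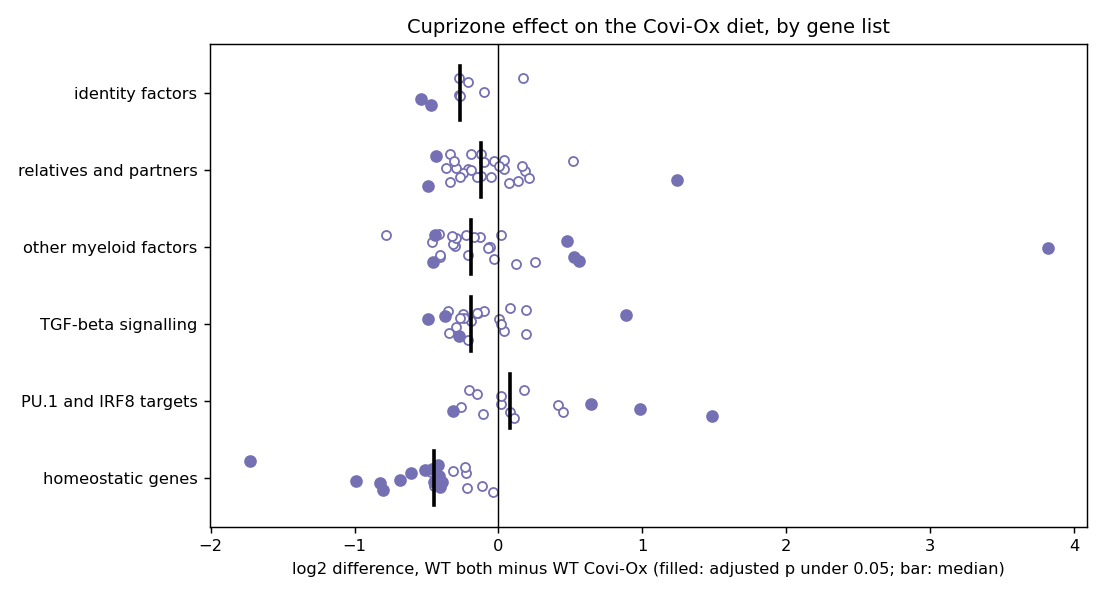
Log2 difference WT both minus WT Covi-Ox (horizontal axis) for the genes of 6 lists; points are genes, filled where the adjusted p is under 0.05, and black bars are list medians. The identity factors sit within -0.54 to 0.17, while 13 of 21 homeostatic genes are filled on the left and Bhlhe40 lies far right at 3.82.

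The second comparison asks what loss of Trem2 does. Under cuprizone Irf8 was lower in KO, and the other 7 members were not called. Irf8 read 591, 570 and 526 units on the WT cuprizone arrays and 423, 435 and 442 on the KO cuprizone arrays. The 3 KO values are the 3 lowest of all 22 arrays, and the 591 is the highest. Between these groups 11.6% of tested genes were without overlap and lower. The mean fell by 0.37 ± 0.09 (95% interval -0.56 to -0.19), from 561 to 433 units, a 1.30-fold difference (limma, adjusted p = 0.0207). It was 1 of 8 members called, where 2.98% of tested genes were called lower and 3.8% in either direction. The calls of this comparison leaned to lower values, with 21.6% of them higher. That share was 36.5% after quantile normalization and 7.17% after centring each array on its median.

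The direction of the Irf8 difference held in all 17 alternatives and its call in 10 of them. It was -0.24 after quantile normalization (adjusted p = 0.161). Without the 3 arrays low in immediate-early genes, which leaves 2 WT arrays and 1 KO array, it was -0.45 (adjusted p = 0.150), and with only these 6 arrays in the model the adjusted p was 0.261. Without WT cuprizone 1 the adjusted p was 0.0637, without WT cuprizone 2 0.0569, without KO cuprizone 2 0.0603 and without KO cuprizone 3 0.0553. Over all tested genes 450 were called, 273 without WT cuprizone 3, 249 or 207 when KO cuprizone 2 or 3 was left out, and 83 without the 3 low arrays.

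The other members were not called under cuprizone. Mef2a read 1398, 1517 and 1840 units in KO cuprizone against 1457, 1404 and 979 in WT cuprizone, a difference of 0.32 ± 0.14 (adjusted p = 0.205). Sall1 read 1134, 1499 and 1344 against 1170, 1277 and 1007, a difference of 0.20 ± 0.13 (adjusted p = 0.427). Without the 3 low arrays these became -0.03 and -0.11, and the Smad3 difference of 0.14 became -0.02. Spi1 differed by -0.08 ± 0.08, Runx1 by -0.05 ± 0.11 and Cebpa by -0.15 ± 0.11. Monocyte markers summed to 147 to 187 units in WT cuprizone and 161 to 234 in KO cuprizone, and neutrophil markers to 697 to 2389 and 1057 to 3321. Microglia markers summed to 20482 to 22832 and 23897 to 26394. Their part in these differences was not tested.

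On normal chow no member was called between genotypes (0 of 8, 0 with an unadjusted p under 0.05, 0.0676% of tested genes called). The 8 genes called in all became 701 without KO control 1 and 5 without KO control 2. Smad3 read 280 and 301 units in WT control and 335 and 348 in KO control, a difference of 0.23 ± 0.13 (adjusted p = 0.541). Runx1 and Cebpa were likewise higher on both KO arrays than on both WT arrays. With 2 arrays a group, 15% of tested genes were without overlap and higher. Irf8 differed by -0.03 ± 0.11 here, with an interval of -0.26 to 0.20. Neutrophil markers summed to 3280 to 3312 units in WT control and 1969 to 2053 in KO control. Border-macrophage markers summed to 2854 to 2981 and 2374 to 2438, and microglia markers to 24625 to 25100 and 25069 to 25713. Their part in these differences was not tested.

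Averaged over the 4 diets, a comparison that does not depend on how sets A and B are read, 0 of 8 members were called, 3 had an unadjusted p under 0.05, and 6.37% of tested genes were called. Those 754 genes became 1347 without KO control 1, 439 without WT control 2 and 492 without KO control 2. Smad3 was 0.19 ± 0.06 higher in KO (317 against 277 units, interval 0.07 to 0.31, adjusted p = 0.0511) and was called in 10 of 32 alternatives. It was 0.15 without the 3 low arrays (adjusted p = 0.180). Irf8 was -0.13 ± 0.05 (interval -0.23 to -0.03, adjusted p = 0.105), from -0.06 after quantile normalization to -0.17 with arrays centred on their medians, where the adjusted p was 0.0369. Without WT control 1 its adjusted p was 0.0495. Sall1 was 0.15 ± 0.07 (adjusted p = 0.203). Spi1, at 0.03 ± 0.04, and Cebpa, at 0.00 ± 0.06, had intervals of -0.06 to 0.12 and -0.12 to 0.12.

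**Figure D4:**
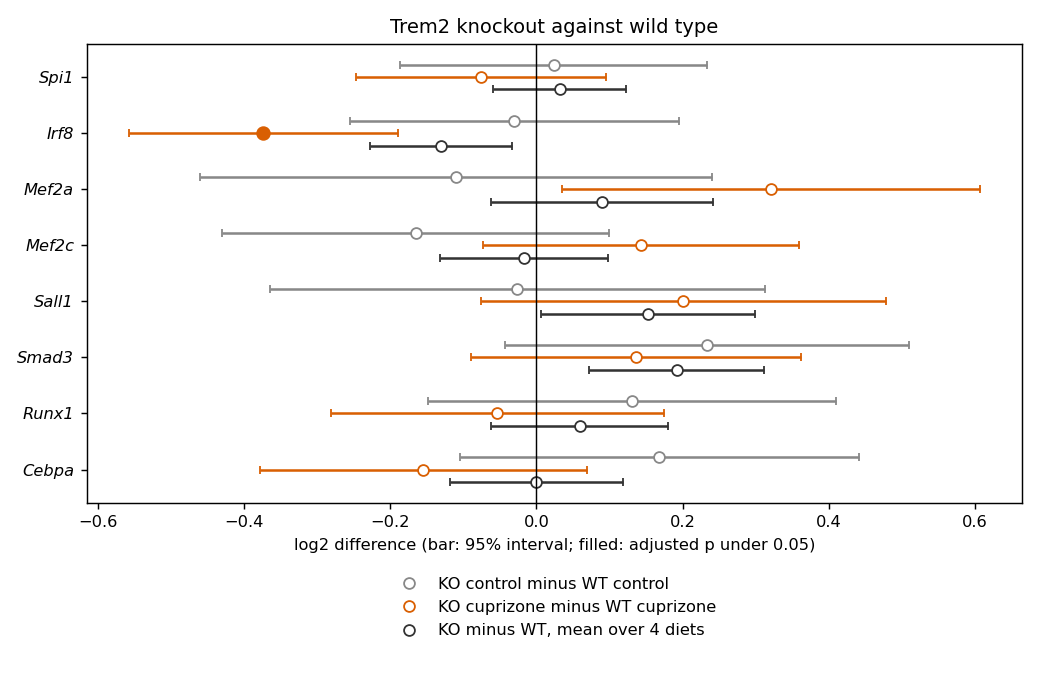
Log2 difference KO minus WT (horizontal axis) for each factor on control chow, under cuprizone and as the mean over 4 diets, with bars for 95% intervals and filled points for adjusted p under 0.05. Irf8 under cuprizone (-0.37) is the filled point, and Smad3 over the 4 diets (0.19) misses the threshold at 0.0511.

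Within KO, cuprizone against control gave 0 calls among the 8 members, 1 with an unadjusted p under 0.05, where 0.0423% of tested genes were called. Those 5 genes became 765 when KO control 1 was left out and 205 when KO cuprizone 1 was, but 0 without KO control 2 and 1 without KO cuprizone 3. Irf8 read 495 and 526 units in KO control and 423, 435 and 442 in KO cuprizone, a difference of -0.24 ± 0.10 (adjusted p = 0.306), or -0.27 without the 3 low arrays (0.585). In WT the same difference was 0.11 ± 0.10. The test of the genotype difference itself gave -0.34 ± 0.14 for Irf8 (interval -0.63 to -0.05, adjusted p = 0.400) and 0.43 ± 0.22 for Mef2a (adjusted p = 0.525). Without the 3 low arrays these were -0.42 (adjusted p = 0.438) and 0.08 (0.947). Again 0 of 8 were called, 1 with an unadjusted p under 0.05, where 0.228% of tested genes were called. Those 27 genes became 265 without KO control 1, 6 to 8 without WT control 1 or 2 or KO control 2, and 14 or 15 without KO cuprizone 2 or 3.

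Among the gene lists, the targets of PU.1 and IRF8 and the resting signature gave calls on opposite sides between genotypes under cuprizone. Of 15 measured PU.1 and IRF8 targets 3 were lower and 0 higher in KO cuprizone than in WT cuprizone, where 2.98% of all tested genes were lower and 0.82% higher: Cybb by -1.28 ± 0.20 (487 to 201 units), Csf2ra by -0.73 ± 0.17 and Csf2rb by -0.59 ± 0.16. The count was 1 without KO cuprizone 3 and 0 without the 3 low arrays. Of 21 resting genes 7 were higher, among them Gpr165 (0.84 ± 0.20), Upk1b (0.67 ± 0.16), Gpr34 (0.54 ± 0.09) and P2ry13 (0.46 ± 0.11). That count was 1 without WT cuprizone 3, KO cuprizone 2 or KO cuprizone 3, 11 without KO cuprizone 1, and 0 without all 3 low arrays. Bhlhe40 was lower by 2.54 ± 0.35 (76.5 against 13.2 units, the latter below the array medians), and Mitf by 0.53 ± 0.12. These 2 of 26 other myeloid factors became 1 without WT cuprizone 2 or with the mean of all probe sets and 0 with only the groups compared, and stayed 2 in number without the 3 low arrays. Of 28 relatives and partners 0 were called. In the TGF-beta list 1 gene was higher in KO, Itgav (0.39 ± 0.08), and 0 were lower. Leaving out single arrays gave 0 to 2 higher and 0 to 1 lower in that list.

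Over the 4 diets several lists held called genes, where 1.68% of all tested genes were higher in KO and 4.69% lower. Of the resting genes 13 of 21 were higher in KO and 0 lower, led by Gpr165 (0.70 ± 0.11) and Upk1b (0.51 ± 0.08), with 9 called without the 3 low arrays. Of the PU.1 and IRF8 targets 5 of 15 were lower and 1 higher: Cybb fell by 1.03 ± 0.10 and Msr1, a scavenger receptor, by 0.64 ± 0.17. Of 26 other myeloid factors 4 were lower, with Bhlhe40 at -1.44 ± 0.19, Prdm1 at -0.31 ± 0.07, Hif1a at -0.30 ± 0.07 and Mitf at -0.23 ± 0.06. The Bhlhe40 mean over the KO groups, 14.8 units, lay below the array medians. Among relatives and partners Ets2 was lower (-0.41 ± 0.12), and Cebpd (0.30 ± 0.08) and Fli1 (0.22 ± 0.06) were higher, and leaving out single arrays gave 0 to 2 called in each direction in that list. In the TGF-beta list Itgav was higher (0.16 ± 0.04) and 0 were lower, with 0 to 1 called in each direction without single arrays.

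The 6 KO arrays with contradictory labels were compared as sets. Against KO control neither set gave a call among the 8 members. Set A had 2 with an unadjusted p under 0.05 and 0.0338% of tested genes called, and set B had 0 and 0.744%. For set A the 4 genes called became 925 without KO control 1, 0 without KO control 2 or set A 1 and 2 without set A 3. For set B the 88 became 876 without KO control 1, 0 without KO control 2 and 14 to 25 without any set B array. Sall1 read 1417 and 997 units in KO control and 1439, 1575 and 1469 in set A, a difference of 0.33 ± 0.15 (adjusted p = 0.399). The KO control arrays lay far apart for this gene, and the difference was 0.58 without KO control 1 (adjusted p = 0.0362) and 0.08 without KO control 2. Set A minus set B called 0 of 8 members, 0 with an unadjusted p under 0.05, where 0.00845% of tested genes were called, a single gene that became 8 without set B 1 and 0 without any of the other 5 arrays. Sall1 read 1216, 1336 and 1302 units in set B, below every set A array, a difference of 0.22 ± 0.13 (adjusted p = 0.666), where 9.95% of tested genes were without overlap and higher.

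In all, 4 comparisons of these sets with WT were added after the values had been seen. Against WT both, set A was higher in Sall1 and Smad3. Sall1 read 1439, 1575 and 1469 units in set A and 997, 954 and 1010 in WT both, a rise of 0.60 ± 0.13 or 1.51-fold (interval 0.32 to 0.87, adjusted p = 0.0056). Smad3 read 307, 351 and 344 against 267, 252 and 236, a rise of 0.41 ± 0.11 (adjusted p = 0.0198). These were 2 of 8 called, where 4.01% of tested genes were called higher and 9.61% in either direction. For both genes every set A array was above every WT both array, where 17.6% of tested genes were without overlap and higher. Mef2a was 0.40 ± 0.14 higher without a call (adjusted p = 0.0758). The Sall1 call held in all 17 alternatives, and the Smad3 call was lost without WT both 2 (adjusted p = 0.0580), WT both 3 (0.0888), set A 2 (0.0834) or set A 3 (0.0741).

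Set B against WT both gave 0 calls among the 8, 2 with an unadjusted p under 0.05, where 3.91% of tested genes were called. Sall1 was 0.38 ± 0.13 (adjusted p = 0.141) and Smad3 0.26 ± 0.11 (adjusted p = 0.234), each higher on all 3 set B arrays, where 14% of tested genes were without overlap and higher. Border-macrophage markers summed to 2234 to 2873 units in set A, 1412 to 2071 in set B and 1401 to 1785 in WT both. Microglia markers summed to 24987 to 26112 units in set A, 23310 to 23780 in set B and 19316 to 19614 in WT both. The part of these markers in the differences was not tested. If the titles are right, set A is the KO counterpart of WT both. If the other fields are right, set B is. These comparisons share the WT both arrays with the cuprizone comparison on Covi-Ox.

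Read by title, the effect of cuprizone on the Covi-Ox diet differed between genotypes for Sall1, by 0.76 ± 0.19 (KO minus WT, interval 0.37 to 1.15, adjusted p = 0.0155), and for Mef2a, by 0.65 ± 0.19 (interval 0.24 to 1.05, adjusted p = 0.0429), where 3.55% of tested genes were called higher and 8.31% in either direction. At the threshold of 0.05 the Sall1 call held in all 23 alternatives and the Mef2a call in 10 of 23. At an adjusted p under 0.01 neither gene was called. Without any single array the Mef2a adjusted p ran from 0.0446 to 0.103, under 0.05 only without set A 1. Read by the other fields, the same difference was 0.32 ± 0.19 for Sall1 (adjusted p = 0.671) and 0.29 ± 0.19 for Mef2a (adjusted p = 0.740), with 0 of 8 called, 0 with an unadjusted p under 0.05 and 0.795% of tested genes called. The readings differ only in the sign given to set A minus set B (0.22 for Sall1, 0.18 for Mef2a). The WT difference is larger in size (-0.54 and -0.47), so both values must be above 0. That they share a sign is therefore no further evidence. Read by title, 4 of 9 border-macrophage markers (median 1.13, all 9 above 0) and 5 of 9 microglia markers (median 0.47) were called higher in the same difference. Read by the other fields 0 of either were called. The part of these markers was not tested.

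Across the 22 arrays several members moved together, most closely Mef2a, Mef2c and Sall1. The 28 pairs of members and the 8 members against the mean of the resting genes make 36 relations, and Benjamini-Hochberg adjustment ran over them. Mef2a and Sall1 correlated at r = 0.830 and rho = 0.863 (permutation p = 1e-05, the smallest 100000 permutations can give, adjusted p = 0.00018). The r was 0.874 without the 2 arrays farthest from the Mef2a median, and 0.665 after group means were removed. Mef2a and Mef2c gave r = 0.845 and rho = 0.764 (permutation p = 1e-05, adjusted p = 0.00018), 0.784 without the 2 farthest and 0.731 within groups. Mef2c and Sall1 gave r = 0.728 (permutation p = 7e-05, adjusted p = 0.000504), 0.664 without the 2 farthest and 0.643 within groups. A few arrays weigh heavily in these within-group values. WT cuprizone 3 deviated from its group mean by -0.36 in Mef2a, -0.25 in Mef2c and -0.19 in Sall1. KO control 1 deviated by 0.18, 0.14 and 0.25, and KO control 2 by -0.18, -0.14 and -0.25. The within-group r without these arrays was not computed. Runx1 and Cebpa gave r = 0.713 and rho = 0.769 (permutation p = 0.00022, adjusted p = 0.00113), 0.701 without the 2 farthest and 0.603 within groups. Runx1 also had an adjusted permutation p under 0.05 with Mef2a, Mef2c, Sall1 and Smad3, as did Sall1 with Smad3. Of the 28 pairs 21 were positive and 11 had an adjusted permutation p under 0.05. All pairs share the same arrays and their normalization. The permutations, here and below, shuffled arrays without regard to their groups, so differences between groups enter each p-value.

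Irf8 stood on the other side of this pattern. With Mef2a it gave r = -0.517 and rho = -0.604 (permutation p = 0.0131, adjusted p = 0.0308), -0.656 without the 2 arrays farthest from the Irf8 median, but 0.076 within groups. With Sall1 it gave r = -0.518 and rho = -0.557 (permutation p = 0.0137, adjusted p = 0.0308), -0.656 without the 2 farthest and -0.139 within groups. These relations were seen between groups and were near 0 or weak among arrays of a group. Spi1 and Irf8, whose proteins bind DNA together, gave r = 0.231 and rho = 0.223 over all arrays (permutation p = 0.299) and 0.573 within groups.

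The mean of the 21 resting genes fell into separate clusters of arrays, 4 at 10.25 to 10.32 on the log2 scale (the 3 WT both arrays and WT cuprizone 3) and 18 at 10.58 to 10.91. No pooled correlation is therefore given. Over the 18 arrays Sall1 gave r = 0.563 (permutation p = 0.0149, adjusted over 8 relations 0.102) and rho = 0.635 (permutation p = 0.00557, adjusted 0.0446), with r = 0.609 without the 2 farthest. Smad3 gave r = 0.510 (permutation p = 0.0307, adjusted 0.102) and rho = 0.544, and 0.447 without the 2 farthest. Spi1 gave r = -0.332 (permutation p = 0.178) and rho = -0.259. For the other members r over these 18 arrays was 0.421 (Mef2a), 0.183 (Mef2c), -0.489 (Irf8), -0.298 (Runx1) and -0.393 (Cebpa). Their adjusted permutation p ran from 0.102 (Irf8) to 0.470 (Mef2c). The Irf8 value was -0.030 without the 2 farthest. With group means removed, over all 22 arrays, r was 0.826 for Mef2a, 0.780 for Sall1, 0.722 for Mef2c and -0.178 for Spi1. WT cuprizone 3 is among those 22 arrays and deviated from its group mean by -0.36 in Mef2a and -0.25 in Mef2c.

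**Figure D5:**
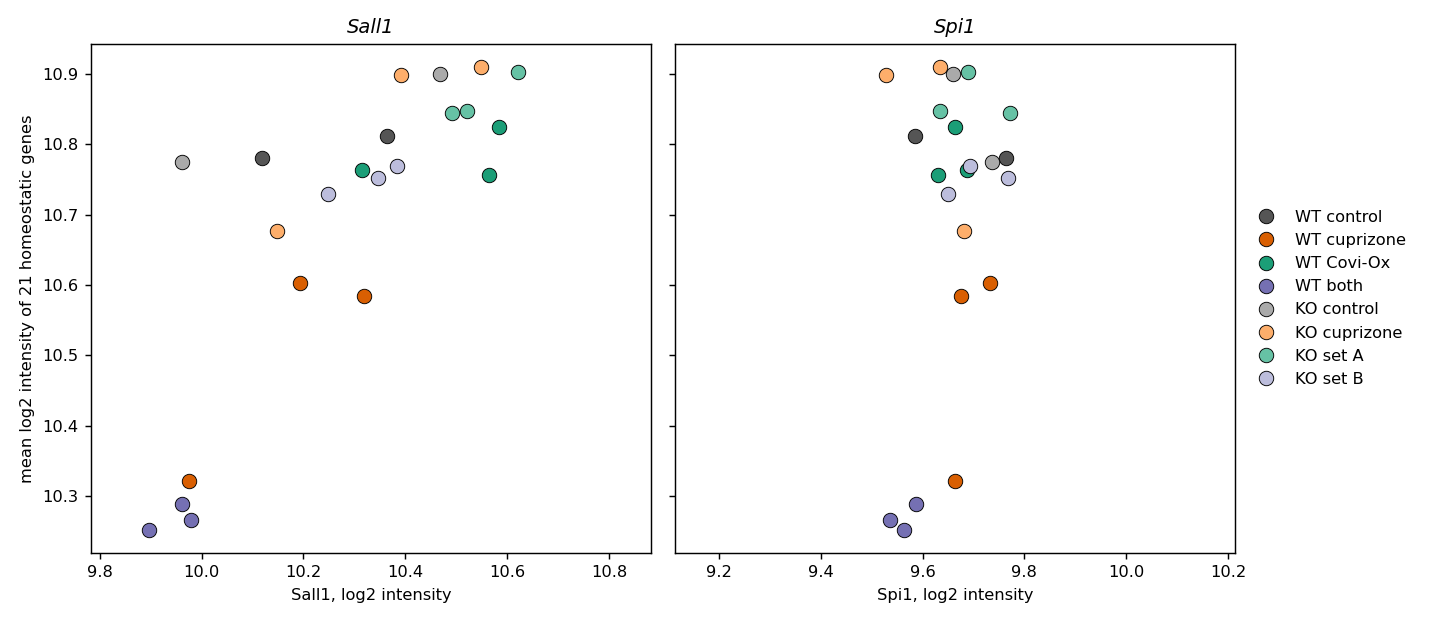
Mean log2 intensity of 21 resting (homeostatic) microglial genes (vertical axis) against the log2 intensity of Sall1 and of Spi1 (horizontal axes, the same width), each point an array coloured by group. The 3 WT both arrays and WT cuprizone 3 lie apart at 10.25 to 10.32, and Spi1 spans a narrower range than Sall1.

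For each member the 3 genes with the closest pattern, by Pearson's r over the 22 arrays, were taken from all tested genes, as a description. Irf8 was closest to Cct6a (0.894), Frmd8 (0.841) and Idh3b (0.808), and the same 3 led without the 3 low arrays. Mef2a was closest to Ivns1abp (0.922), St3gal6 (0.904) and Inpp4b (0.898), Mef2c to Ppil4 (0.898), Rlim (0.892) and Mertk (0.889), and Sall1 to Mtus1 (0.905), Cmtm6 (0.873) and Atp6v0a2 (0.862). Smad3 was closest to Sik2 (0.823), Runx1 to Exoc4 (0.800), Cebpa to Tsc22d3 (0.791) and Spi1 to Bag3 (0.747). For the 7 members other than Irf8, 0 of the 3 closest genes stayed among the closest 3 without the low arrays.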

How the data were processed

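The authors deposited a table of linear intensity values per probe set, made with RMA per the submitters' processing notes (no version or settings are given in the sources used here). It holds 28098 probe sets, values from 1.62 to 11568 and 2 missing cells. RMA gives arrays nearly equal distributions, so a change in total RNA per cell cannot be seen. Of these, 21640 map to a single gene, 1321 to several and 5137 are unlisted, and the latter kinds were left out. Here log2 was taken, each gene was kept as its highest-mean probe set, and 11830 of 19936 genes were kept, those which 2 or more arrays read above their own 50th percentile. The number of arrays, 2 or 3 a group, limits the precision.

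Groups came from the labels. One limma 3.58.1 model (R 4.3.3) held 8 group means, had 14 residual and 5.49 prior degrees of freedom, and gave 14 comparisons, to which 4 were added after values were seen. Benjamini-Hochberg adjustment ran over all tested genes, with calls made at adjusted p under 0.05. Each error is an SE unless SD is named, and tests are two-sided. Correlations used 100000 permutations of the arrays, which ignored the groups (Python 3.11.15, numpy 2.4.6). The workflow was tested on simulated data.

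The members, gene lists and tests were chosen with earlier results of these data known. Named list genes are up to 4 called genes with the largest change per list and comparison, and the members are always named. Same-numbered arrays did not deviate together (median correlation -0.00043 over 71 pairs), so the numbers were used only in an alternative. Other settings tried were a block on replicate number, other filters, quantile normalization, median centring, the mean of all probe sets, the trend and robust options of limma, array weights, only the arrays compared, an adjusted p under 0.01, the immediate-early mean as a covariate, and leaving out the 3 low arrays or each array in turn.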

Additional observations from a re-analysis of the deposited data

Results flagged for a closer look

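Sall1 and Mef2a stand out because the effect of cuprizone on the Covi-Ox diet differed between genotypes in a test of the difference itself (limma, n = 3 arrays a group), with the KO sets read by title. The difference was 0.76 ± 0.19 on the log2 scale for Sall1 (adjusted p = 0.0155). Of all tested genes, 3.55% were called higher in this difference and 8.31% in either direction. In WT the Sall1 level went from 1436 units without to 987 with cuprizone, a difference of -0.54. All 3 WT arrays with cuprizone were lower, where 17.5% of tested genes were without overlap and lower. Between the KO sets it went from 1284 to 1493, a difference of 0.22 that was not called (adjusted p = 0.666). All 3 set A arrays were higher than all 3 of set B, where 9.95% of tested genes were without overlap and higher. For Mef2a the difference was 0.65 ± 0.19 (adjusted p = 0.0429), with 1734 and 1251 units in WT and 1457 and 1648 in the KO sets. Read by the other label fields the differences were 0.32 ± 0.19 for Sall1 (adjusted p = 0.671) and 0.29 ± 0.19 for Mef2a (adjusted p = 0.740), and neither was called. In the same title-read difference 4 of 9 border-macrophage markers (median 1.13) and 5 of 9 microglia markers (median 0.47) were called higher, and 0 of either when read by the other fields. Summed border-macrophage markers were 2405 to 3030 units in WT Covi-Ox, 1401 to 1785 in WT both, 1412 to 2071 in set B and 2234 to 2873 in set A, and their part was not tested. The labels do not settle which reading is right, and the comparison was added after values had been seen.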

How the results depend on the processing

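For the 18 comparisons and 8 members there were 144 differences, 9 of them called, and 2720 values under alternatives. Of these 2515 kept direction and side of the threshold, 64 lost and 29 gained a call, none reversed a call, and 112 took the other sign without a call on either side. In 127 of the 144 no setting gave a call. Unless named, the cause of a change was not tested. For WT both minus WT Covi-Ox (2 members called), the replicate block gave 1, no filter 1, an adjusted p under 0.01 gave 0, and leaving out single arrays 0 to 1. For cuprizone over both WT diets (2), the replicate block, no filter, median centring, leaving out the 3 low arrays, the immediate-early covariate and an adjusted p under 0.01 each gave 0, only the groups compared gave 1, and single arrays 0 to 2. For KO cuprizone minus WT cuprizone (1), quantile normalization, leaving out the 3 low arrays, only the groups compared and an adjusted p under 0.01 each gave 0, and single arrays 0 to 1. For KO minus WT over 4 diets (0), the 75th percentile filter, quantile normalization, median centring, trend and robust options and the covariate each gave 1, and single arrays 0 to 1. For set A minus KO control (0) single arrays gave 0 to 1. For set A minus WT both (2) an adjusted p under 0.01 gave 1 and single arrays 1 to 2. For set B minus WT both (0) array weights and only the groups compared each gave 1. For the genotype difference on Covi-Ox read by title (2), the replicate block gave 1, no filter 1, an adjusted p under 0.01 gave 0 and single arrays 1 to 2. The replicate block changed no other count of called members.

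Over all tested genes, WT cuprizone minus WT control called 296 genes, 183 with the replicate block and 69 to 428 without single arrays. WT both minus WT Covi-Ox called 925, 1752 with array weights and 531 to 659 without single arrays. KO cuprizone minus WT cuprizone called 450, 711 after median centring, 83 without the 3 low arrays, 801 with the covariate and 207 to 529 without single arrays. Signal over background set no limit for the members. Groups of 2 or 3 arrays, and 2 of them in each control, do: with cuprizone on chow the widest member interval reached -0.50 to 0.14, for Mef2a.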
